A study of Mus musculus with 6 samples.

Results

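Glycolysis turns glucose into pyruvate in a fixed chain of enzymes, most of which exist as several isoforms made by separate genes, and the genes of many of these enzymes belong to the programme that cells switch on when oxygen is low. That programme is run by hypoxia-inducible factors (HIF), whose alpha subunits are marked for destruction by prolyl hydroxylases (Egln proteins) while oxygen is present. The 42 genes described here were listed by name, with earlier results of these data known, from glucose transporters, glycolytic enzymes, lactate and pyruvate enzymes (28 genes) and from HIF subunits, their hydroxylases and well-known hypoxia-response genes (14 genes). On the array, 39 of them had at least 1 probe set annotated to that gene alone, with 86 probe sets between them, out of 34958 such probe sets for 18194 genes. No probe set was annotated to Gpi1, Eno1 or Bnip3l alone. Of the 86 probe sets 61 passed the filter on low signals and were tested, and they stood for 34 of the 42 genes.

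The cells were 393P, a mouse lung cancer cell line, grown in RPMI medium with serum and transfected with lipid reagents. In 3 cultures the cells stably carried the empty pcDNA control vector, and in the other 3 a vector for constitutive expression of Zeb1, a zinc-finger repressor of epithelial genes. Total RNA of each culture was hybridised to 1 Affymetrix expression array. Whether a group came from 1 clone or from a pool of transfected cells, and how many transfections were made, the sources used here do not say, so the p-values measure the spread between these cultures, which may be technical. As RNA was measured in bulk, fewer cells that express a gene and less RNA per cell cannot be told apart.

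Signals are in log2 units, and those below the 25th percentile of the whole data set (4.45) were raised to that floor. A probe set was tested if it reached the median of its array on at least 3 of the 6 arrays, and a gene was represented by its brightest tested probe set. Rose and fell are used where limma's moderated test, adjusted by Benjamini-Hochberg over all 20605 tested probe sets, gave an adjusted p under 0.05. Across tested probe sets, which are not independent replicates, r was 0.979 to 0.984 between arrays within a group and 0.867 to 0.873 between a control and a Zeb1 array. The Zeb1 transcript was higher in each Zeb1 array, with its brightest probe set going from 4.47 to 9.69. Of 6 markers of simple epithelium 4 were called, each lower in Zeb1 cells. The summed log2 signal of all 6 was 84.6 to 85.1 on control arrays and 64.9 to 65.9 on Zeb1 arrays. On their brightest probe sets Krt7, Epcam and Cdh1 had log2 changes of -8.31, -7.05 and -4.01, and Krt8 had -0.16. Krt18 and Krt19 were not called (0.03 and -0.04), so the shift was not shared by all 6. Of the alveolar and airway, leukocyte, endothelial and fibroblast markers 3 of 7, 2 of 5, 1 of 4 and 1 of 6 were tested. The others were not bright enough, and 0 of the tested ones were called. Nkx2-1, which defines lung epithelium, lay near the floor (4.79 and 4.63). On the Gapdh control probe sets the 3′ signal minus the 5′ signal, a sign of RNA quality, was -0.34 to -0.31 on control arrays and -0.41 to -0.31 on Zeb1 arrays. The part of the epithelial shift and of RNA quality in the results below was not tested.

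Sequence upstream of 6 of the members that changed is shown first, 5 that hold the letters ACGTG and 1 that does not, chosen with their changes known, since hypoxia-inducible factors are known to bind a short core, ACGTG, in the control regions of many of these genes. The stretches are the 250 bases before the RefSeq transcription start in the GRCm38.p6 mouse genome, 5′ to 3′ along the gene, with ACGTG on either strand in capitals (CACGT where it lies on the opposite strand). They cover chr7:138909507-138909756 on the minus strand for Bnip3, chr10:59951771-59952020 on the minus strand for Ddit4, chr6:82774455-82774704 on the minus strand for Hk2, chr4:119108495-119108744 on the plus strand for Slc2a1, chr12:54203875-54204124 on the minus strand for Egln3 and chr10:78009808-78010057 on the minus strand for Pfkl. Bnip3, Ddit4, Hk2, Slc2a1 and Pfkl fell and Egln3 rose, as described below. Ndrg1, the gene with the largest fall among the tested members, is named without a sequence.
Bnip3: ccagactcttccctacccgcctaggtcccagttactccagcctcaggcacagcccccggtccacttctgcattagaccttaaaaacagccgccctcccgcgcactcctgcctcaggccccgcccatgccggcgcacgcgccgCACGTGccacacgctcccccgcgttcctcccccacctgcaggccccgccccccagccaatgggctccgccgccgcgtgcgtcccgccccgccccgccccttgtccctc
Ddit4: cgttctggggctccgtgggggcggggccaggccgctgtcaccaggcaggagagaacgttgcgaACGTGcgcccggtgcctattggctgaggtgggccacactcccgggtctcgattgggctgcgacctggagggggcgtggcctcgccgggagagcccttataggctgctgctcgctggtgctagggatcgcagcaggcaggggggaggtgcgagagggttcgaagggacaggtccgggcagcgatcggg
Hk2: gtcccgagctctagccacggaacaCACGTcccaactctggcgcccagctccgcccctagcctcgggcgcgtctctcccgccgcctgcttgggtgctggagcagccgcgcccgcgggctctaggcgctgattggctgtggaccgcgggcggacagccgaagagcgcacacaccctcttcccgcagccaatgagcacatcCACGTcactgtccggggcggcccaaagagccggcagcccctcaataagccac
Slc2a1: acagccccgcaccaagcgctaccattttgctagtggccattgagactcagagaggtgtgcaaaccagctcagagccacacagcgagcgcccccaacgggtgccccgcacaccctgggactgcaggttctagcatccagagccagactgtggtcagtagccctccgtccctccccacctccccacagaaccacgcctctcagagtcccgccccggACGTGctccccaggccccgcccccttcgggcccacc
Egln3: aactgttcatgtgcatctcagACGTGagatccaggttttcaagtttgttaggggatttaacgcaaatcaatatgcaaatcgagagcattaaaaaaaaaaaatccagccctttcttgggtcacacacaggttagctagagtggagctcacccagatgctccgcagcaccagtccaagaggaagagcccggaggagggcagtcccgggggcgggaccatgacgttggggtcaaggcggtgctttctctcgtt
Pfkl: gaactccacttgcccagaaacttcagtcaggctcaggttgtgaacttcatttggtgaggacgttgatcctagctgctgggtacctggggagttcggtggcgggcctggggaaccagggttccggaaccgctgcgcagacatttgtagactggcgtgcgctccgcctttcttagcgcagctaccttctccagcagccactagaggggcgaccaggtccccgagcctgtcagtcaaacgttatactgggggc

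In Bnip3 the core was present on both strands within a single CACGTG, whose first base lies 108 bases before the start. The core of Ddit4 began 187 bases before the start and that of Slc2a1 36 bases before it. Hk2 held 2, at 226 and 52 bases, and Egln3 held 1 at 229 bases. The stretch of Pfkl held no ACGTG on either strand. Only these letters were searched for, so other forms of the core are not counted for Pfkl or in the shares below. Among the 38 members with a RefSeq promoter in the table, 23 (60.5%) had the core in at least 1 upstream stretch, beside 25.02% of the 9655 tested genes with a promoter and 18.5% of all 27025 genes. Several genes have more than 1 annotated start, and counted by stretch the shares were 49.1% of 55 for members, 21.4% of 12372 for tested genes and 16.6% of 32851 for all. Of the members that fell, 10 of 13 with a promoter had the core, of those that rose 2 of 5, and of those tested but not called 9 of 15. The list holds many genes long cited as HIF targets, so the share describes the list. The E-box CACCTG, a sequence that Zeb1 is known to bind, was searched for on both strands in the same stretches and was found for 7 of the 38 members (18.4%) and 18.9% of the tested genes. Among the members that fell it was found for 2, Bnip3 and Egln1. A match is a stretch of letters and does not show binding.

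Most of the tested members that changed were lower in Zeb1 cells. Of the 34 tested genes 14 fell (41.2%), where 23.5% of all 11894 tested genes fell, and 5 rose (14.7%), where 25.8% of all tested genes rose. As the list was drawn up with earlier results known, these shares describe it and are not independent evidence of a direction. Changes in either direction thus made up 19 of 34, beside 49.3% of all tested genes. The median log2 change was -0.24 over the 34 and 0.01 over all tested genes, and 25 of the 34 had a lower mean in Zeb1 cells. The arrays of the groups did not overlap for 20 of the 34 genes (58.8%), close to the 58.2% of all tested genes. Falls of at least 2-fold were seen for 5 members (Ndrg1, Pfkl, Pfkfb3, Bnip3 and Ddit4), where 6.79% of all tested genes fell that far, and rises of at least 2-fold for 2 (Egln3 and Aldoc), where 8.97% rose that far. Egln3 passed the filter through its Zeb1 arrays alone, so its place in these counts depended on its change. Counted by probe set, 31 of 61 fell and 5 rose, beside 21.6% and 24.5% of all tested probe sets, of which 46.1% changed in either direction. At least 2-fold, 10 member probe sets fell and 2 rose (6.17% and 8.96% of all), and the groups did not overlap on 38 (55.4% of all). The spread between arrays of 1 group was small for these genes, with a median SD of 0.114. Of the 14 members with several tested probe sets, 12 had log2 changes of 1 sign on all of them, and for no member were probe sets called in opposite directions.

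**Figure D1:**
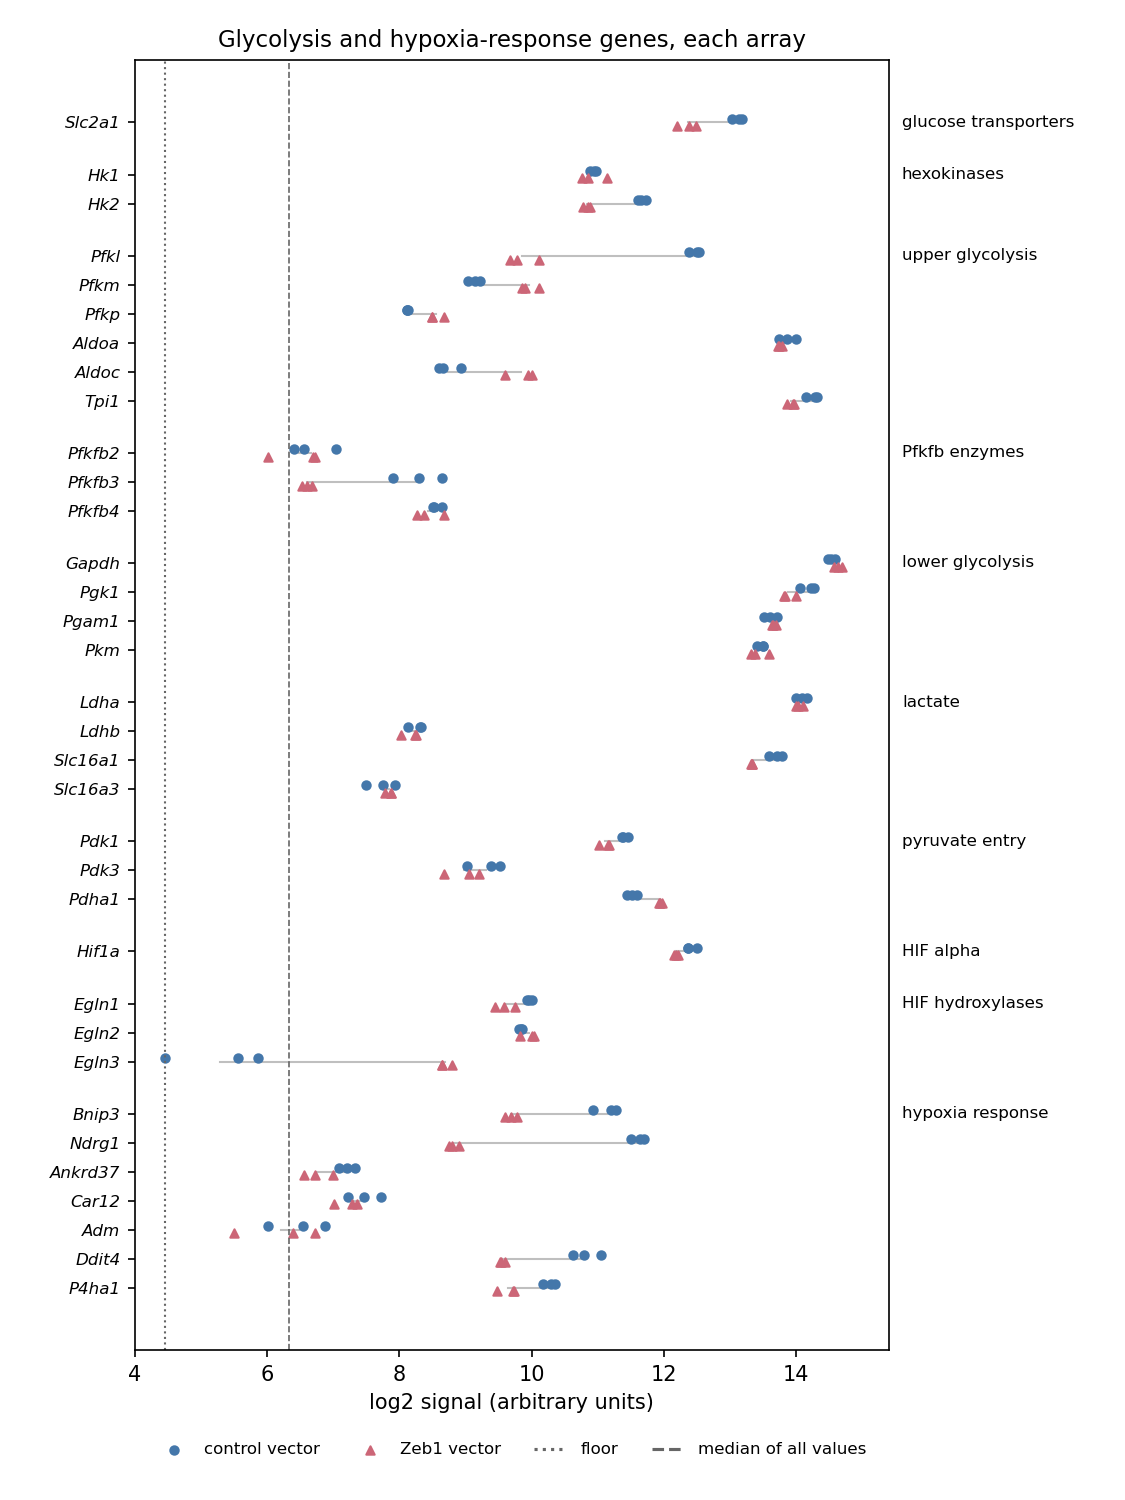
Log2 signal of the representative probe set of each of the 34 tested genes on each array, ordered by step, with control vector arrays as blue circles and Zeb1 vector arrays as red triangles. Grey lines join the group means, the dotted line is the floor and the dashed line the median of all values, and the widest gaps are those of Egln3, Ndrg1 and Pfkl.

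Glucose enters these cells through facilitative transporters, of which Slc2a1 (GLUT1) is the general one and Slc2a3 (GLUT3) one of high affinity. Slc2a1 had log2 signals of 13.18, 13.14 and 13.03 on the control arrays and 12.38, 12.49 and 12.20 on the Zeb1 arrays. The groups did not overlap, and Slc2a1 was 1.69-fold lower in Zeb1 cells (log2 change -0.76, SE 0.079, adjusted p = 4.11e-05). Its other probe sets gave -0.81 and -0.90, so that the fall was read alike by the 3. The 4 probe sets of Slc2a3 were too low to be tested. The brightest went from 6.49 ± 0.40 to 5.02 ± 0.73 (SD, n = 3 each), with 1 Zeb1 array at the floor, and another lay at the floor on each array.

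Hexokinases trap glucose in the cell as glucose 6-phosphate; Hk1 is the widely expressed form and Hk2 the one that is known for its high level in tumours and its response to hypoxia. Hk2 signals were 11.72, 11.66 and 11.61 on control arrays and 10.78, 10.85 and 10.88 on Zeb1 arrays. The groups were far apart relative to their spread, a 1.78-fold fall (log2 change -0.83, SE 0.068, adjusted p = 8.12e-06). Hk1 signals were 10.97, 10.94 and 10.88 on control arrays and 10.76, 10.85 and 11.14 on Zeb1 arrays. These overlapped, and the log2 change of -0.01 had a 95% interval of -0.24 to 0.22, with 0.03 on the second probe set. Taken within each array, Hk2 minus Hk1 shifted by -0.82, and no Zeb1 array reached a control array.

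Phosphofructokinase 1, the committed step of glycolysis, is a tetramer of liver (Pfkl), muscle (Pfkm) and platelet (Pfkp) subunits, and its 3 genes moved in different directions. Pfkl signals were 12.50, 12.54 and 12.38 on control arrays and 9.78, 9.67 and 10.11 on Zeb1 arrays. Each Zeb1 array lay more than 2 log2 units under each control array, and Pfkl was 6.14-fold lower (log2 change -2.62, SE 0.11, adjusted p = 9.15e-08). The other probe sets of Pfkl fell by 1.94 (adjusted p = 2.21e-07) and 0.93 (adjusted p = 0.00243), so the direction was shared and the size was not.

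Pfkm signals were 9.04, 9.22 and 9.14 on control arrays and 9.89, 9.86 and 10.10 on Zeb1 arrays. Pfkm was 1.76-fold higher (log2 change 0.82, SE 0.105, adjusted p = 0.000156). Pfkp signals were 8.13, 8.11 and 8.12 on control arrays and 8.49, 8.50 and 8.68 on Zeb1 arrays, a 1.35-fold rise (log2 change 0.43, SE 0.122, adjusted p = 0.0156). This small rise missed the threshold when Zeb1 vector replicate 3 was left out (adjusted p = 0.0548), with arrays centred on their medians (adjusted p = 0.11) or with the mean of its probe sets (0.33, adjusted p = 0.0969). The second tested probe set of Pfkp gave 0.22 (adjusted p = 0.473). A further one, too low to be tested, was lower on Zeb1 arrays (5.85 ± 0.55 and 5.07 ± 0.55). Its groups overlapped, and 1 Zeb1 array was at the floor.

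The shift between subunits was read within each array as the difference between their log2 signals. Probe sets bind with different strength, so the shift of such a difference shows unequal change and its level says nothing about which subunit is more abundant. Pfkm minus Pfkl went from -3.34 ± 0.11 to 0.10 ± 0.10 (SD, n = 3 each), a shift of 3.44, and Pfkp minus Pfkl from -4.35 ± 0.084 to -1.30 ± 0.13, a shift of 3.05. With the mean of each gene's probe sets, the isoform pair Pfkm minus Pfkl shifted by 2.65 and the isoform pair Pfkp minus Pfkl by 2.16. In both, the arrays of the groups did not overlap and the two-sided exact permutation p was 0.1, the smallest that 3 arrays against 3 can give (0.111 adjusted over the 10 isoform pairs compared).

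Phosphofructokinase 2 enzymes set the level of fructose 2,6-bisphosphate, the strongest activator of phosphofructokinase 1, and Pfkfb3 is the form with the greatest excess of kinase activity. Pfkfb3 signals were 8.30, 8.64 and 7.90 on control arrays and 6.68, 6.61 and 6.52 on Zeb1 arrays. Pfkfb3 was 3.19-fold lower (log2 change -1.68, SE 0.208, adjusted p = 0.000127), although the control arrays spread widely (SD 0.37). Its second probe set, too low to be tested, went from 6.72 ± 0.40 to 6.13 ± 0.19.

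Pfkfb4 signals were 8.65, 8.53 and 8.50 on control arrays and 8.37, 8.27 and 8.67 on Zeb1 arrays, which overlapped (log2 change -0.13, 95% interval -0.44 to 0.19). Pfkfb2 signals, near the middle of all values, were 6.56, 7.04 and 6.40 on control arrays and 6.69, 6.0 and 6.73 on Zeb1 arrays (log2 change -0.19, 95% interval -0.84 to 0.45). Relative to Pfkfb3, Pfkfb4 shifted by 1.55 and Pfkfb2 by 1.48 within arrays, with no overlap of the groups and the same exact permutation p of 0.1.

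Aldolases split fructose 1,6-bisphosphate; Aldoa is the general form and Aldoc the brain form. Aldoc signals were 8.93, 8.66 and 8.59 on control arrays and 9.59, 9.94 and 10.00 on Zeb1 arrays. Aldoc was 2.17-fold higher (log2 change 1.12, SE 0.140, adjusted p = 0.000136), while its other probe set was low and was not tested (4.65 ± 0.35 and 4.75 ± 0.40). Aldoa was read by 5 bright probe sets. The brightest gave 13.99, 13.74 and 13.87 on control arrays and 13.73, 13.79 and 13.74 on Zeb1 arrays, which overlapped (log2 change -0.12, 95% interval -0.26 to 0.03). The next 3 fell by 0.37, 0.29 and 0.31 (adjusted p = 0.000348, 0.00353 and 0.000538) and the last gave -0.14. With the mean of its 5 probe sets Aldoa fell by 0.24 (adjusted p = 0.00269), and the brightest fell by 0.18 without control vector replicate 2 (adjusted p = 0.0229). Aldoc minus Aldoa shifted by 1.23 within arrays, with no overlap.

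Triose phosphate isomerase, Tpi1, which interconverts the products of aldolase, fell by a small amount on each of its 3 probe sets. The brightest gave 14.32, 14.15 and 14.28 on control arrays and 13.86, 13.95 and 13.97 on Zeb1 arrays, a 1.25-fold fall (log2 change -0.32, SE 0.057, adjusted p = 0.00117). The others fell by 0.31 and 0.42.

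**Figure D2:**
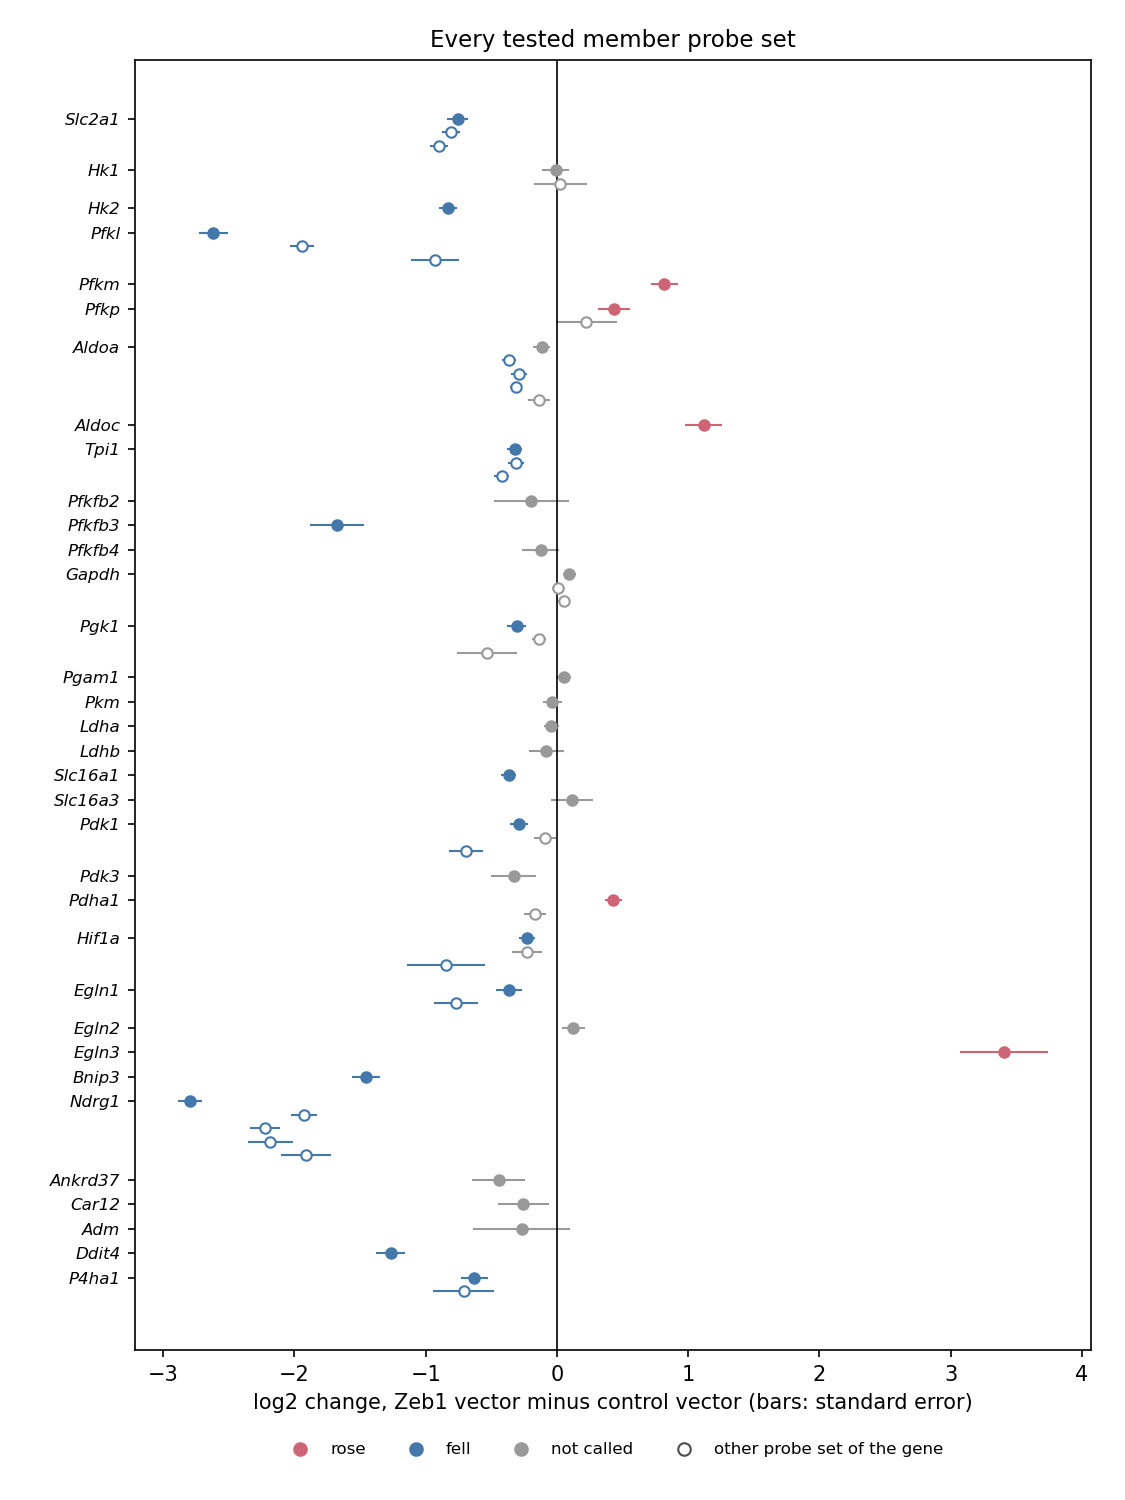
Log2 change, Zeb1 vector minus control vector, with limma's standard error, of each of the 61 tested probe sets, ordered by step. Filled points represent the gene and open points are its other probe sets; the 3 probe sets of Pfkl and the 5 of Ndrg1 lie to the left of 0, and Pfkm, Pfkp, Aldoc, Pdha1 and Egln3 have points that rose.

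Of the 4 tested members of the lower, energy-yielding steps 1 fell and 0 rose, beside 23.5% and 25.8% of all tested genes. Their median log2 change was 0.01, and Eno1 had no probe set of its own. Whether signals as bright as these understate a change was not tested. Gapdh, which oxidises glyceraldehyde 3-phosphate, was read by 3 control probe sets of the array. The brightest gave 14.59, 14.49 and 14.52 on control arrays and 14.63, 14.69 and 14.57 on Zeb1 arrays, a log2 change of 0.09 with a 95% interval of -0.01 to 0.20 (adjusted p = 0.144), and the others gave 0.01 and 0.05. Phosphoglycerate kinase, Pgk1, makes the first ATP of this stage and is a common hypoxia marker. It gave 14.28, 14.05 and 14.22 on control arrays and 13.81, 13.83 and 13.99 on Zeb1 arrays, a 1.24-fold fall (log2 change -0.31, SE 0.070, adjusted p = 0.00541). The Pgk1 call was lost with no filter on low values (adjusted p = 0.0649) and with no intensity trend (adjusted p = 0.0528), and its other probe sets gave -0.13 (adjusted p = 0.0647) and -0.53 (adjusted p = 0.0821).

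The mutase Pgam1 gave 13.71, 13.51 and 13.61 on control arrays and 13.65, 13.69 and 13.63 on Zeb1 arrays (log2 change 0.05, 95% interval -0.08 to 0.18). Pyruvate kinase, Pkm, gave 13.50, 13.40 and 13.50 against 13.32, 13.38 and 13.59 (log2 change -0.04, 95% interval -0.20 to 0.13). The groups overlapped for both genes. The neuronal enolase Eno2 was not tested: its control signals were 4.51, 4.98 and 5.36, and each Zeb1 array was at the floor. The enolase Eno3, which is not a member, rose by 0.33 (12.48 ± 0.023 to 12.81 ± 0.052, adjusted p = 0.000684).

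Pyruvate that is not burned leaves as lactate, made by lactate dehydrogenase and exported by monocarboxylate transporters. Ldha, the subunit that favours lactate and is a well-known HIF target, gave 14.17, 14.00 and 14.09 on control arrays and 14.00, 14.03 and 14.10 on Zeb1 arrays (log2 change -0.04, 95% interval -0.17 to 0.08). Ldhb, the subunit that favours pyruvate, gave 8.31, 8.13 and 8.32 against 8.25, 8.24 and 8.03 (log2 change -0.08, 95% interval -0.38 to 0.22). Neither was called, and Ldhb minus Ldha overlapped between groups (shift -0.04, exact permutation p = 0.9). Of 17 isoform pairs listed 10 could be tested, and the other 9 did not overlap. Pfkl, Pfkfb3 and Egln1 each stand in 2 of these pairs, so the pairs are not independent, and 58.2% of single genes did not overlap either.

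Slc16a1 (MCT1), a carrier of lactate and pyruvate in both directions, gave 13.79, 13.60 and 13.71 on control arrays and 13.32, 13.34 and 13.33 on Zeb1 arrays. The groups did not overlap, a 1.29-fold fall (log2 change -0.37, SE 0.057, adjusted p = 0.0005). Slc16a3 (MCT4), the lactate exporter induced by hypoxia in many cells, gave 7.76, 7.94 and 7.49 against 7.78, 7.87 and 7.87, which overlapped (log2 change 0.11, 95% interval -0.25 to 0.48).

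Entry of pyruvate into mitochondrial oxidation is gated by pyruvate dehydrogenase, whose E1 alpha subunit is Pdha1. It is switched off by the Pdk kinases, of which Pdk1 to Pdk3 are members here. Pdk1, a kinase induced by HIF, gave 11.37, 11.46 and 11.37 on control arrays and 11.15, 11.02 and 11.17 on Zeb1 arrays, a 1.22-fold fall (log2 change -0.29, SE 0.072, adjusted p = 0.00814). Another of its probe sets fell by 0.69 (adjusted p = 0.00168) another gave -0.09, and the remaining probe set of Pdk1 was at the floor on each array. Pdk3 gave -0.33 (95% interval -0.71 to 0.05) and was not called, and Pdk2 was too low to be tested (5.32 ± 0.69 and 5.55 ± 0.63). Pdk4, which is not a member, was also too low to be tested. It was higher on Zeb1 arrays without overlap (4.76 ± 0.28 and 6.11 ± 0.13), with 1 control array at the floor.

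Pdha1 rose on its brightest probe set, from 11.52, 11.59 and 11.44 on control arrays to 11.97, 11.93 and 11.94 on Zeb1 arrays (log2 change 0.43, SE 0.064, adjusted p = 0.000402). Its second probe set gave -0.17 (adjusted p = 0.142), and the call was lost with the mean of the probe sets (0.13, adjusted p = 0.112) and with arrays centred on their medians (adjusted p = 0.0502).

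Among the oxygen-sensing genes the largest change was the rise of Egln3, a prolyl hydroxylase that is itself a HIF target. Egln3 signals were 5.86, 5.55 and at the floor on control arrays and 8.65, 8.79 and 8.64 on Zeb1 arrays. With 1 control array at the floor and low control signals, the gene was at least 10.6-fold higher (log2 change 3.41, SE 0.334, adjusted p = 2.66e-05), and raising the floor to the 50th percentile left a log2 change of 2.37. Its second probe set was at the floor on each control array and reached 6.98, 5.79 and 5.62 on Zeb1 arrays. Egln3 passed the filter of 3 arrays through its Zeb1 arrays alone, so without any 1 of them it was not tested.

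Egln1, the main hydroxylase for HIF, went the other way. It gave 9.93, 9.95 and 10.00 on control arrays and 9.45, 9.59 and 9.75 on Zeb1 arrays, a 1.29-fold fall (log2 change -0.36, SE 0.101, adjusted p = 0.0145). The second probe set of Egln1 fell by 0.77 (adjusted p = 0.00418), the mean of both fell by 0.57, and leaving out Zeb1 vector replicate 1 ended the call (adjusted p = 0.0604). Egln2 gave 9.83, 9.85 and 9.81 against 10.01, 10.03 and 9.83, which overlapped (log2 change 0.13, 95% interval -0.08 to 0.33). Within arrays Egln3 minus Egln1 shifted by 3.77. The low control signals of Egln3 leave the size of this shift dependent on the floor, and the isoform pair Egln3 minus Egln1 gave 2.73 after raising it to the 50th percentile. Egln2 minus Egln1 shifted by 0.49, with no overlap in either pair and an exact permutation p of 0.1 for each.

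Hif1a, the widely expressed alpha subunit, is regulated mostly through protein stability, which arrays do not read. Its transcript gave 12.36, 12.50 and 12.37 on control arrays and 12.15, 12.18 and 12.21 on Zeb1 arrays, a 1.17-fold fall (log2 change -0.23, SE 0.061, adjusted p = 0.012). The call was lost with no intensity trend (log2 change -0.23, adjusted p = 0.0701) and with arrays centred on their medians (-0.31, adjusted p = 0.0782), and the mean of its probe sets fell by 0.43. One dimmer probe set fell by 0.84 (adjusted p = 0.0419), but its groups overlapped and its control arrays spread widely (SD 0.62). Another gave -0.23 (adjusted p = 0.133). The other alpha subunit, Epas1 (HIF-2 alpha), was too low to be tested on either probe set (5.54 ± 0.57 and 5.18 ± 0.70 on the brighter).

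**Figure D3:**
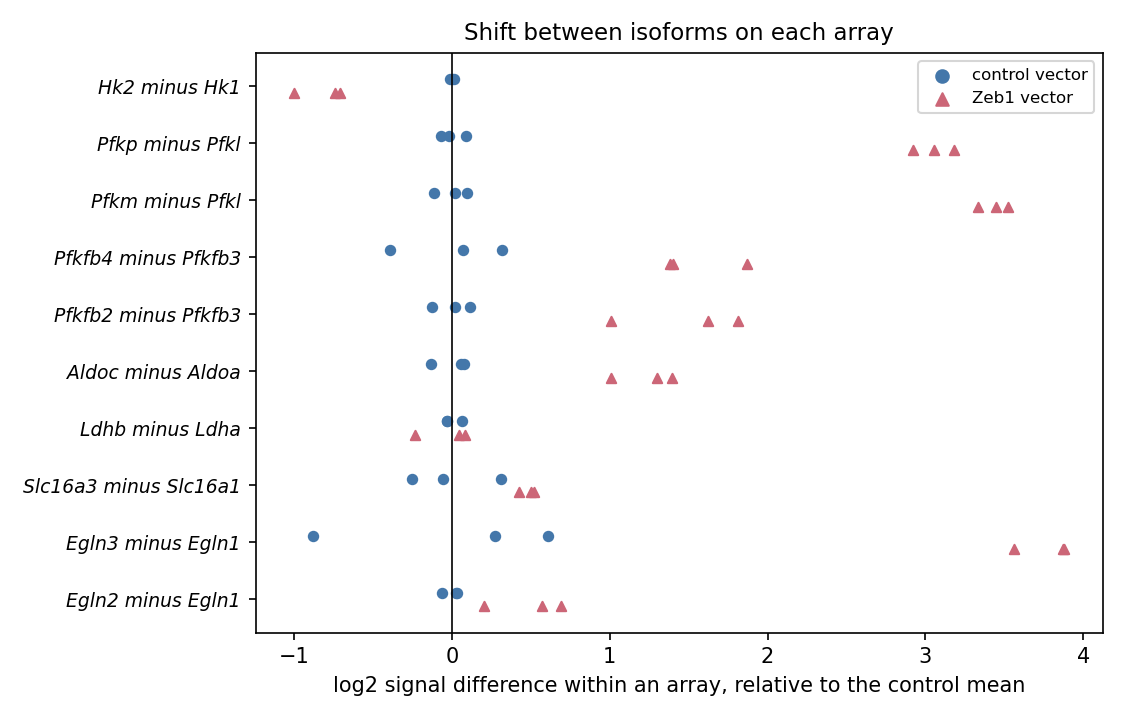
Difference in log2 signal between isoforms on each array, relative to the mean of the control arrays (0), with control vector arrays as blue circles and Zeb1 vector arrays as red triangles. Of the 10 pairs, Ldhb minus Ldha overlaps between the groups, and the pairs with Pfkl and the pair of Egln3 with Egln1 shift by 3.05 to 3.77, the last depending on the floor.

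Of the 7 hypoxia-response members tested, 4 fell, 0 rose and 3 were not called, beside the 23.5% of all tested genes that fell and the 25.8% that rose. These 7 leave out Egln3, counted with the hydroxylases, which rose. They had a median log2 change of -0.63, and the mean of each was lower in Zeb1 cells. Ndrg1, a stress-induced protein known as a hypoxia marker, had the largest fall of the tested members. Its brightest probe set gave 11.69, 11.64 and 11.50 on control arrays and 8.80, 8.90 and 8.75 on Zeb1 arrays, a 6.94-fold fall (log2 change -2.80, SE 0.088, adjusted p = 1.49e-08). The remaining 4 probe sets of Ndrg1 fell too, with log2 changes of -1.93, -2.23, -2.18 and -1.91 and adjusted p from 2.85e-07 to 2.96e-05. On each of the 5 the control arrays lay above the Zeb1 arrays.

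Bnip3, a mitochondrial protein that marks mitochondria for removal under hypoxia, gave 11.28, 11.20 and 10.93 on control arrays and 9.77, 9.59 and 9.68 on Zeb1 arrays. The gap between the groups was wider than the spread within either, and Bnip3 was 2.74-fold lower (log2 change -1.46, SE 0.105, adjusted p = 3.42e-06). Ddit4 (REDD1), an inhibitor of mTORC1 that is induced by hypoxia and other stresses, gave 11.04, 10.79 and 10.62 against 9.60, 9.52 and 9.54. Ddit4 was 2.40-fold lower (log2 change -1.27, SE 0.111, adjusted p = 1.28e-05). P4ha1, a collagen prolyl hydroxylase subunit, gave 10.35, 10.17 and 10.29 against 9.47, 9.72 and 9.73, a 1.55-fold fall (log2 change -0.63, SE 0.102, adjusted p = 0.000698), and its second probe set fell by 0.71 (adjusted p = 0.0305).

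Ankrd37, a small ankyrin-repeat protein, gave 7.20, 7.08 and 7.32 on control arrays and 6.99, 6.56 and 6.72 on Zeb1 arrays. These did not overlap, but the log2 change of -0.44 was not called (adjusted p = 0.103); it was called after raising the floor to the 50th percentile (adjusted p = 0.0482) and with no intensity trend (adjusted p = 0.0406). The membrane carbonic anhydrase Car12, which buffers acid at the cell surface, gave -0.26 (95% interval -0.70 to 0.19), and its paralogue Car9, one of the most specific hypoxia markers, was too low to be tested, at 5.89, 5.88 and 5.89 on control arrays and at 5.46, 5.54 and the floor on Zeb1 arrays. The peptide hormone gene Adm was low and variable on its brighter probe set (6.47 ± 0.44 and 6.21 ± 0.63; log2 change -0.27, 95% interval -1.10 to 0.56) and at the floor on the other.

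**Figure D4:**
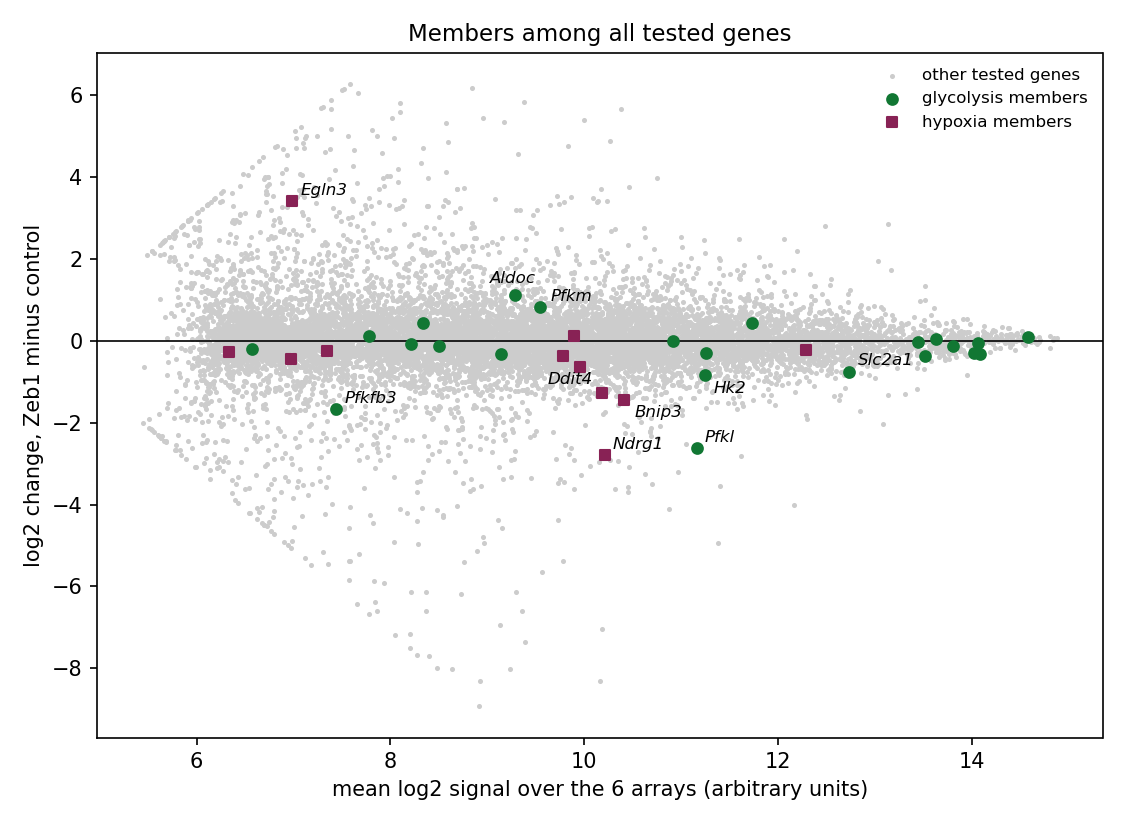
Log2 change against mean log2 signal for all 11894 tested genes (grey), with the tested glycolysis members as green circles and the tested hypoxia members as purple squares. Ndrg1, Pfkl, Pfkfb3, Bnip3 and Ddit4 lie at or below -1.27, Egln3 and Aldoc at or above 1.12, and the brightest members at the right lie close to 0.

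Genes that border on the members were counted from lists of other genes of these pathways. Over the 5 lists 23 of 78 tested genes rose and 22 fell, beside the 25.8% and 23.5% of all tested genes. The rises numbered 13 with arrays centred on their medians, where fewer of all tested genes rose too (2259 of 11894), 15 with no filter on low values and 15 without Zeb1 vector replicate 2. Among other glycolysis and pyruvate genes 5 of 19 rose and 5 fell, with a median of -0.08. Mpc1, a subunit of the mitochondrial pyruvate carrier, fell by 1.64 (10.52 ± 0.32 to 8.88 ± 0.16, SD, n = 3 each, adjusted p = 2.46e-05), and the pyruvate dehydrogenase subunit Dlat fell by 0.64. The phosphatase Pdp1, which opposes the Pdk kinases, rose by 0.76 (adjusted p = 0.000127), and the transporter Slc2a8 rose by 0.76. Leaving out Zeb1 vector replicate 2 ended the Slc2a8 call (adjusted p = 0.0549).

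In the pentose phosphate pathway, which branches off at glucose 6-phosphate, 3 of 9 rose and 4 fell. Over all tested genes the shares were 25.8% and 23.5%. Rpia, an isomerase of its ribose arm, was 4.26-fold lower (11.83 ± 0.052 to 9.74 ± 0.048, adjusted p = 2.6e-08), H6pd fell by 1.08 and the transaldolase Taldo1 by 0.97, while Prps1, which makes the activated ribose for nucleotides, fell by 0.39. The Prps1 call was lost with no filter on low values (adjusted p = 0.0742). The 3 genes that rose had smaller changes than the 4 that fell. Of 12 gluconeogenesis and glycogen genes 5 rose and 2 fell. The phosphatase G6pc3 rose by 2.17 (adjusted p = 0.000646), the glycogen primer Gyg by 2.14 (adjusted p = 6.15e-07) and the mitochondrial carboxykinase Pck2 by 1.71 (adjusted p = 1.74e-05), whereas the phosphoglucomutase Pgm1 fell by 0.72. The Pgm1 call was lost with the mean of its probe sets (adjusted p = 0.0831).

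Of 14 partners and regulators of HIF 6 rose and 3 fell, beside 25.8% and 23.5% of all tested genes. Siah2, a ubiquitin ligase that targets prolyl hydroxylases, fell by 1.45 (adjusted p = 0.000265), and Usp20, Cul2 and Arnt rose by 1.00, 0.81 and 0.60. Arnt is the partner that HIF alpha subunits need to bind DNA, and Cul2 is the scaffold of the ligase that removes them. The calls of Usp20 and Arnt were lost with no filter on low values (adjusted p = 0.0649 and 0.0684). Of 24 other genes listed as hypoxia-response genes 8 fell and 4 rose, with a median of -0.12. The transcription factor Bhlhe40 was 3.54-fold lower (11.92 ± 0.074 to 10.09 ± 0.026, adjusted p = 5.43e-08) and the lipid droplet protein Hilpda 2.41-fold lower (10.74 ± 0.071 to 9.47 ± 0.11). The Myc antagonist Mxi1 was 2.92-fold higher (9.72 ± 0.15 to 11.27 ± 0.064, adjusted p = 1.01e-06), and Pgm5, at the floor on each control array, rose at least 10.5-fold. Pgm5 passed the filter through its Zeb1 arrays alone, so that it could be tested at all depended on its change. Whether Pgm5 or the other listed genes respond to hypoxia in these cells was not tested.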

How the data were processed

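Log2 signals of 45101 probe sets on 6 Affymetrix arrays were used as deposited. They are MAS5 signals per the submitters' processing notes, with no version given in the sources used here, and once taken out of log2 every array had a trimmed mean (2% off either tail) of 500. The 2 missing values were placed at the floor. Probe sets with several symbols (932) or none (9211) were left out. The 13 array control probe sets named by 1 mouse gene, which hold those of Gapdh, were kept. Gene names came from the platform annotation, looked up in the RefSeq gene table of GRCm38.p6. Changes were tested with limma 3.58.1 in R 4.3.3 (eBayes with an intensity trend) over probe sets, with Benjamini-Hochberg adjustment, after a test on simulated data. That test recovered 63% of 100 changes of log2 size 1 and 88% of 100 of size 2, with 9 false calls. Far fewer probe sets were changed there than were called here, so these shares may not hold for the members. The number of arrays limits the precision, with a median SE of 0.147 over tested probe sets. Folds from a group with arrays at the floor, or with a mean below the pooled median (6.32), are written as at least N-fold. Values on each array are given for members called with at least 2-fold changes, their isoforms and most others. From each neighbouring list up to 4 called genes with the largest changes are named, and the untested Pdk4 and the enolase Eno3 are named besides. The members and lists were chosen with earlier results of these data known.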

Additional observations from a re-analysis of the deposited data

How the results depend on the processing

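Each count was recomputed with other floors, filters, scalings, ways of choosing probe sets and models, and without each array. The member genes that fell numbered 14, and 13 to 15 under these settings (13 to 15 without single arrays). The member genes that rose numbered 5, but 3 with arrays centred on their medians and with the mean of a gene's tested probe sets, and 3 to 5 without single arrays. Member probe sets that rose numbered 3 with centred arrays and 3 to 5 without single arrays. Neighbouring list genes that rose numbered 23, but 15 with no filter on low values, 13 with centred arrays, and 15 to 22 without single arrays. Of the 19 called members 14 kept their call under each setting that tested them, and no called member changed direction. Isoform pairs without overlap, which share genes and are not independent, numbered 9 of 10, and 8 to 9 without single arrays. With the replicate number as a replicate block, 14 member genes fell and 5 rose, the same genes as without it. Same-numbered arrays deviated with r = 0.02, 0.01 and -0.04, so the numbers gave no sign of pairing and the block changed no call of a member. Signals near the floor limit Slc2a3, Eno2, Pdk2, Epas1 and Car9.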
